A study of Mus musculus and Homo sapiens with 11 samples.

Results

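The 10 genes described here encode proteins of the tight junction. They are 8 claudins (Cldn1, Cldn2, Cldn3, Cldn4, Cldn6, Cldn7, Cldn8 and Cldn12), occludin (Ocln) and the scaffold protein ZO-1 (Tjp1). They were taken by symbol from a table of 24062 genes, and the table listed all 10. Their RNA was measured by RNA-seq in a mouse mammary tumour cell line, MMTV-ErbB2, and in a brain metastatic derivative of that line that the labels call MMTV-ErbB2-BrM 2a. In MMTV-ErbB2 mice the promoter of the mouse mammary tumour virus drives the receptor tyrosine kinase ErbB2 in the mammary epithelium, and both groups share that origin. The table holds 3 parental libraries and 3 libraries of the derivative, called BrM below. No treatment is given for either group, and the labels do not say whether the line is a single clone. The series also has 5 libraries of HCC1954, a human breast cancer line, not analysed here.

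Tight junctions seal the space between neighbouring epithelial cells near the apical surface. Claudins are small membrane proteins whose extracellular loops pair across the gap between cells; some claudins close the gap to ions, others line pores through it, and the mixture a cell makes sets the permeability. Occludin is a second kind of membrane protein in the same strands, and ZO proteins tie claudins and occludin to the actin cytoskeleton from the cytoplasmic side. Mammary luminal cells carry tight junctions, and claudin levels vary widely between breast cancers.

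Reads assigned to genes ranged from 29877087 (BrM replicate 1) to 46683735 (parental replicate 2). Each value is a read count scaled by the authors. Group values are mean ± SD (n = 3 libraries), and differences are BrM minus parental on the scale of log2(value + 1) with their standard error. A gene was called where limma's adjusted p (Benjamini-Hochberg over the 13821 genes tested) was under 0.05. Whether a group's libraries came from separate cultures is not stated, so the p-values here reflect library-to-library spread that may be technical only. The labels name 2 library kits and 2 media without assigning them to libraries, so a difference between the lines and one of kit or medium cannot be told apart. BrM replicate 1 stood apart from the other two BrM libraries: 3614 and 3654 tested genes differed at least 2-fold between it and BrM replicates 2 and 3, against 220 between those 2 and 976 to 1683 within the parental group. Results that rest on it are given with and without it. In bulk RNA, fewer cells of a type and less RNA per cell cannot be told apart.

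Claudins changed in both directions. Cldn3, Cldn6, Cldn7 and Cldn12 rose in BrM, by 1.95-fold to 4.45-fold, and Cldn1 fell 2.93-fold. Cldn2, Cldn4, Ocln and Tjp1 did not pass the test, and Cldn8 was below the minimum for testing. Thus 5 of the 9 genes tested were called, beside 28.1% of all genes tested. The 4 that rose stand beside 12.2% of all genes called higher, and the 1 that fell beside 15.8% called lower. The median difference of the 9 was 0.57 on the log2 scale, against -0.05 over all genes tested. Each of the 9 had a mean above 10, the minimum for testing, in both groups, so none was tested only because of the group where it was high. Without BrM replicate 1, 7 of the 9 were called, beside 47.3% of all genes tested in that fit. Without BrM replicate 2, without BrM replicate 3, or with these 2 averaged to 1 library, 3 were called, beside 15.8%, 16.7% and 16.3% of all genes.

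**Figure D1:**
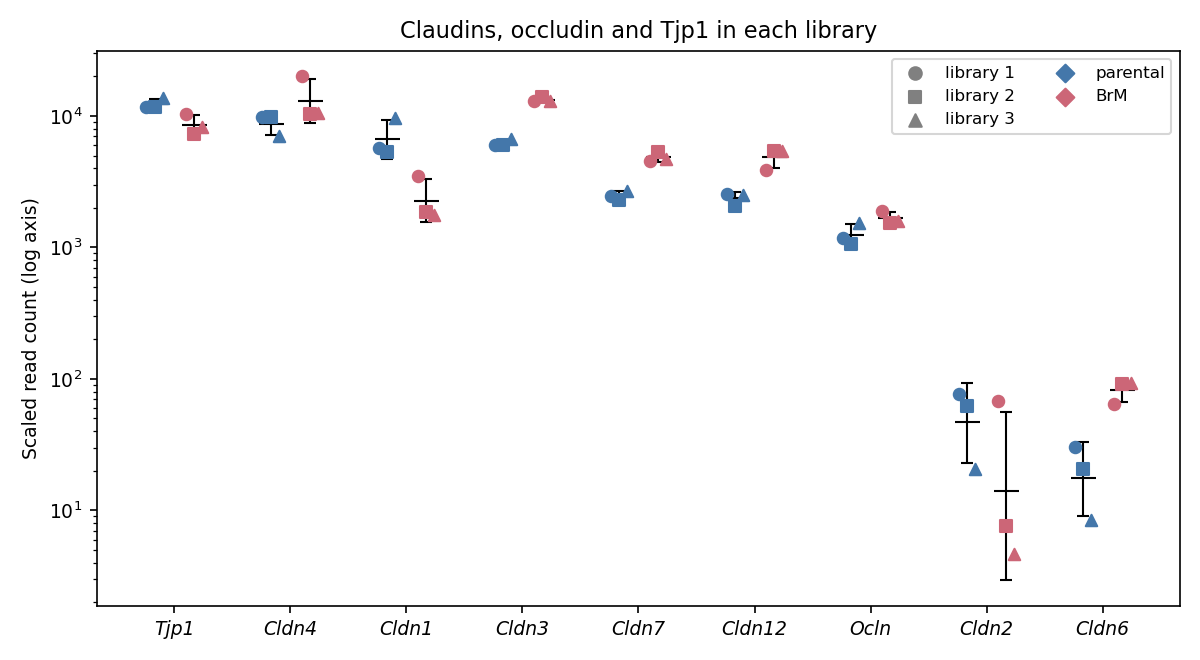
Scaled read count (log axis) of the 9 tested tight junction genes (Cldn8 is not drawn) in each of the 3 parental (blue) and 3 BrM (red) libraries; symbols are libraries, and black bars are the group mean ± SD computed on log2(value + 1). Cldn3, Cldn6, Cldn7 and Cldn12 lay higher in all 3 BrM libraries and Cldn1 lower, while the groups of Cldn2 overlapped.

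**Figure D2:**
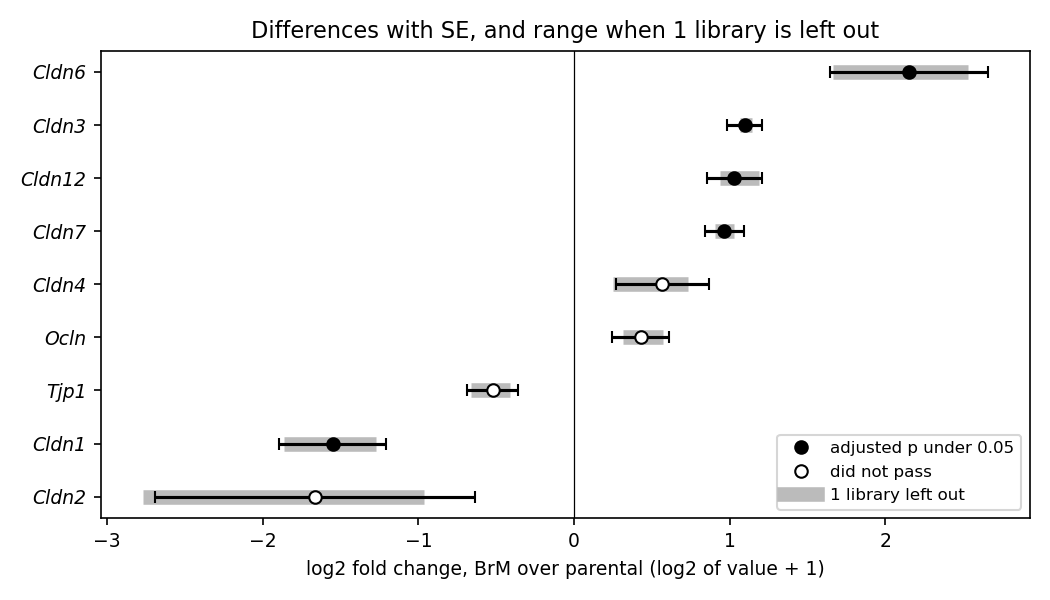
Difference between BrM and parental libraries for each tested gene on the log2 scale; whiskers are ± 1 standard error from limma, grey bands the range of the difference when 1 library is left out, and filled points were called. Cldn3 (1.10) and Cldn7 (0.97) had the smallest standard errors, and Cldn2 (-1.67) the widest.

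The regions just upstream of these genes are shown for the 3 abundant claudins that rose (Cldn3, Cldn7 and Cldn12), for Cldn4, the neighbour of Cldn3, and for Cldn1, which fell. Each sequence is the 250 bases before the transcription start, from RefSeq on build GRCm38.p6, written 5′ to 3′ on the strand of the gene; where RefSeq lists several starts the most upstream one is used. Of the 10 genes, 9 were matched in that table. Capitals mark matches on either strand to 2 short motifs: CACCTG, the E-box that Snail and ZEB repressors can bind, and GGGCGG, the GC box. A match on the opposite strand is seen in the lines as its reverse complement, CAGGTG for the E-box. For the GC box it is seen as CCGCCC.
Cldn3 (+ strand, chr5:134985964-134986213): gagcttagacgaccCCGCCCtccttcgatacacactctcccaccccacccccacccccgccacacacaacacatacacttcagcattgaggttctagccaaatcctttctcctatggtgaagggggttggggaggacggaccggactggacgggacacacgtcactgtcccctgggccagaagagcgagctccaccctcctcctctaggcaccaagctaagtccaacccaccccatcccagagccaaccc
Cldn4 (- strand, chr5:134946935-134947184): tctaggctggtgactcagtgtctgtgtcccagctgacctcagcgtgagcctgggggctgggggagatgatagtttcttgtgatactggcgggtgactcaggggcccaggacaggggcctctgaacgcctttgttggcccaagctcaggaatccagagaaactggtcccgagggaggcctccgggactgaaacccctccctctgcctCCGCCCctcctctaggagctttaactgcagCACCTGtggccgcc
Cldn7 (+ strand, chr11:69964529-69964778): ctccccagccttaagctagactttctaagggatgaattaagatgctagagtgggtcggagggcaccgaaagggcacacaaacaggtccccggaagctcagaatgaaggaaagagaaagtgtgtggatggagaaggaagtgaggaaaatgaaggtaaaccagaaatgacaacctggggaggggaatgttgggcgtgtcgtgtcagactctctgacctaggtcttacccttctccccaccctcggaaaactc
Cldn12 (- strand, chr5:5514977-5515226): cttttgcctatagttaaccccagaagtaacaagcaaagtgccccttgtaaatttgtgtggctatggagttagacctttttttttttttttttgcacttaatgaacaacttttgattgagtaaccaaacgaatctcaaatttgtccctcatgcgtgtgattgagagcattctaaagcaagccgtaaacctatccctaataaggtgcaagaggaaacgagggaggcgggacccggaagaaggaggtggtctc
Cldn1 (- strand, chr16:26371840-26372089): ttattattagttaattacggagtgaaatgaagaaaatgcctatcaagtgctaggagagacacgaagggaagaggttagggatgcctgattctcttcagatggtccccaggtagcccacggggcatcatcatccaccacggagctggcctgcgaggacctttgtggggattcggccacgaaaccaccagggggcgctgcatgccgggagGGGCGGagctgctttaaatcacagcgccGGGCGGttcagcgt

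Cldn4 held 1 CACCTG and 1 GC box, Cldn3 held 1 GC box, and Cldn1 held 2 GC boxes close to its start. The windows of Cldn7 and Cldn12 held neither motif. Further starts are listed for some of the genes: the second window of Cldn7, inside the gene, held 2 CACCTG motifs and 1 GC box, and the second and further windows of Cldn12 held 1 GC box each. The window of Cldn6 held 1 CACCTG and 2 GC boxes. That of Tjp1 (chr7:65371245-65371494) held 2 GC boxes, and it lay inside the gene as annotated in GENCODE M21. Ocln had 1 GC box before its first start, and 2 CACCTG motifs and 1 GC box before its second. CACCTG was present in 17.2% and GGGCGG in 32.7% of the 32851 promoter windows of this length. The TATA box TATAAA, searched on both strands, occurred in 12.4% of all windows and, among the 10 genes, in that of Cldn2. The grainyhead motif AACCGGTT, the same on both strands, occurred in 0.116% of all windows and in none of those matched here. The GC content was 60.8% for Cldn3, 62% for Cldn4, 51.2% for Cldn7, 42% for Cldn12 and 55.6% for Cldn1, against a median of 52.4% over all windows. No motif searched was in a window of all 4 genes that rose and absent from that of Cldn1, and a match is a description of letters only.

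Cldn3 and Cldn4 encode barrier-forming claudins of many epithelia that also serve as receptors for an enterotoxin of Clostridium perfringens. Their genes lie side by side on chromosome 5 (GENCODE M21, GRCm38), Cldn4 at 134945119-134946934 on the - strand and Cldn3 at 134986214-134987472 on the + strand. Cldn3 was measured at 6049, 5993 and 6636 in parental replicates 1 to 3 and at 13115, 13850 and 12958 in BrM replicates 1 to 3. All 3 BrM libraries lay far above the parental ones, and each group was tight. The means were 6226 ± 356 and 13308 ± 476, and the gene rose 2.14-fold (log2 difference 1.10, SE 0.11, adjusted p = 0.00108). Its call held under all 23 alternatives tried, with a fold between 2.06 and 2.31. An exon of Wbscr25, on the other strand, overlaps Cldn3, and whether reads were counted by strand is not given in the sources used here; Wbscr25 itself had means of 19.7 and 57.5.

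Cldn4 did not move with its neighbour in all libraries. It stood at 9844, 9780 and 6987 in the parental libraries and at 20159, 10349 and 10523 in BrM. BrM replicate 1 was 1.93-fold above the mean of the other BrM libraries, which were close to parental replicates 1 and 2. The groups did not overlap, but the difference did not pass the test (8870 ± 1631 and 13677 ± 5615, log2 difference 0.57, SE 0.30, adjusted p = 0.202). Over all alternatives its adjusted p ranged from 0.101 to 0.434. Without BrM replicate 1 the log2 difference was 0.25 with an adjusted p of 0.271. The ratio of Cldn3 to Cldn4 counts was 0.614, 0.613 and 0.95 in the parental libraries and 0.651, 1.34 and 1.23 in BrM. The ratio in BrM replicate 1 fell inside the parental range, and the log2 difference of 0.53 had p = 0.2 in a two-sided exact permutation test, where 3 libraries against 3 cannot give less than 0.1. Adjusted over the 4 ratios tested in all, p was 0.2.

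Cldn7 encodes a claudin found along the lateral membrane as well as in the junction, where it binds the adhesion molecule EpCAM. It lies on chromosome 11 at 69964779-69967885, + strand. The parental libraries had 2454, 2291 and 2696, and the BrM libraries 4582, 5284 and 4674. All BrM libraries were above all parental ones, with BrM replicate 1 the lowest of its group by a small margin. The gene rose 1.95-fold (2480 ± 204 to 4847 ± 381, log2 difference 0.97, SE 0.13, adjusted p = 0.00272), under all 23 alternatives. Its partner Epcam was at 20991 ± 1080 and 18478 ± 3467, a log2 difference of -0.20 with an adjusted p of 0.410. The ratio of Cldn7 to Epcam counts was 0.104 to 0.135 in the parental libraries and 0.205 to 0.303 in BrM. The log2 difference of 1.17 in that ratio had p = 0.1, the smallest the exact permutation test allows, and 0.133 after adjustment.

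Cldn12 encodes an unusual claudin that lacks the tail motif by which most claudins bind ZO proteins. It also lies on chromosome 5, far from Cldn3 and Cldn4, at 5489537-5514958 on the - strand. It was measured at 2542, 2085 and 2520 in parental libraries and at 3887, 5461 and 5378 in BrM. BrM replicate 1 was the lowest of its group, the other 2 being 1.39-fold above it on average, and still lay above every parental library. The gene rose 2.04-fold (2382 ± 258 to 4908 ± 886, log2 difference 1.03, SE 0.18, adjusted p = 0.00755).

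Cldn6 encodes a claudin of embryonic epithelia that is scarce in most adult tissues. It lies on chromosome 17 at 23679249-23682446, + strand, and was low in both groups, with 64 reads over the parental libraries and 248 over BrM. Its values were 30.5, 20.6 and 8.50 in parental libraries and 64.7, 90.9 and 93.1 in BrM. The groups did not overlap, and the lowest value was in parental replicate 3 and the lowest of BrM in replicate 1. The means were 19.9 ± 11 and 82.9 ± 15.8, a 4.45-fold rise (log2 difference 2.15, SE 0.51, adjusted p = 0.0223). The fold was between 2.98 and 6.04 under every alternative. The call was lost without parental replicate 2 (adjusted p = 0.0638), without BrM replicate 2 (0.0802) or 3 (0.0805), and with BrM replicates 2 and 3 averaged (0.0792).

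Cldn1, the claudin on which the water barrier of the skin depends, was the member that fell. It lies on chromosome 16 at 26356642-26371841, - strand. The parental libraries had 5674, 5277 and 9732, and the BrM libraries 3497, 1869 and 1774. Parental replicate 3 was the highest of all and BrM replicate 1 was 1.92-fold above the mean of the other BrM libraries, yet below every parental one. The means were 6895 ± 2465 and 2380 ± 969, and the gene fell 2.93-fold (log2 difference -1.55, SE 0.34, adjusted p = 0.0184). The call was lost without parental replicate 3 (adjusted p = 0.0507), BrM replicate 2 (0.0649) or BrM replicate 3 (0.0615) and with BrM replicates 2 and 3 averaged (0.0628), and the fold stayed between 2.14 and 3.64 under every alternative. Cldn1 reads outnumbered Cldn12 reads in the parental libraries, at ratios of 2.23, 2.53 and 3.86, and were fewer in BrM, at 0.900, 0.342 and 0.330. The log2 difference of -2.58 had p = 0.1 in the exact permutation test and 0.133 after adjustment.

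Cldn2 and Cldn8 were scarce. Cldn2, which forms pores for cations and water in leaky epithelia, lies on the X chromosome at 139800828-139811386, + strand. It was at 77.3, 62.6 and 20.8 in parental libraries and at 68.4, 7.65 and 4.66 in BrM. BrM replicate 1 lay within the parental range and was 11.1-fold above the mean of the other BrM libraries, so the groups overlapped. The log2 difference of -1.67 (SE 1.03) did not pass the test (adjusted p = 0.274). Without BrM replicate 1 it was -2.77, with an adjusted p of 0.0141, a 6.82-fold in place of a 3.17-fold lower value; without BrM replicate 3 it was 1.95-fold (adjusted p = 0.565). Cldn8, a claudin of the kidney collecting duct and colon on chromosome 16 at 88560828-88563183, - strand, had 12 reads over the parental libraries and 0 over BrM. Counting the BrM group at the floor of 3 reads, it was 3.61-fold lower there. That value takes the 12 parental reads as exact, so it covers neither their counting error nor the spread between libraries. In the fit with no minimum it was tested and called (adjusted p = 0.0391), which raised the count of members called to 6 of 10. In that fit 21.1% of all genes tested were called.

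Occludin, whose gene lies on chromosome 13 at 100496507-100552718 on the - strand, was measured at 1184, 1063 and 1525 in parental libraries and at 1891, 1547 and 1598 in BrM. The groups did not overlap, but the highest parental value was close to the lowest of BrM. The log2 difference of 0.43 (1257 ± 239 and 1679 ± 186, SE 0.18) had an adjusted p of 0.129. With each chromosome centred on its own median difference it was 0.76 with an adjusted p of 0.0403.

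Tjp1, on chromosome 7 at 65296165-65527781, - strand, encodes ZO-1, the PDZ-domain scaffold to which most claudins bind. It was at 11649, 11732 and 13677 in parental libraries and at 10371, 7343 and 8278 in BrM, so all BrM values lay below all parental ones. The log2 difference of -0.52 (12353 ± 1147 and 8664 ± 1550, SE 0.16) had an adjusted p of 0.0567. It was called without BrM replicate 1 (log2 difference -0.66, adjusted p = 0.00672) and by DESeq2 on the recovered reads (adjusted p = 0.0405), and it was -0.13 (adjusted p = 0.594) with chromosomes centred. The ratio of Ocln to Tjp1 counts was 0.0906 to 0.111 in the parental libraries and 0.182 to 0.211 in BrM, a log2 difference of 0.95 with p = 0.1 in the exact permutation test and 0.133 after adjustment. Across the 9 tested genes, 8 had groups that did not overlap, beside 48.0% of all genes tested.

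The spread between libraries of a group differed among the members. The pooled SD on the log2 scale was 0.068 for Cldn3 and 0.115 for Cldn7, and 3.61% and 14.2% of 7166 abundant genes had a smaller one. It was 0.436 for Cldn4 and 0.514 for Cldn1, where 80.3% and 86.0% of those genes had a smaller one. The members that departed most in BrM replicate 1 were Cldn2, Cldn4 and Cldn1, each higher there than in BrM replicates 2 and 3. BrM replicates 2 and 3 themselves differed by 1.02-fold to 1.13-fold in the tested members other than Cldn2, where the factor was 1.64.

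Levels were compared between genes per kilobase of annotated exon. Cldn3 and Cldn4 led in both groups, at 4945 ± 283 and 4885 ± 898 scaled counts per kb in parental libraries and 10570 ± 378 and 7531 ± 3092 in BrM, with overlapping ranges. In parental libraries Tjp1 (1581 ± 147), Cldn1 (1424 ± 509) and Cldn7 (1273 ± 105) came next with overlapping ranges, above Cldn12 (563 ± 61.0) and Ocln (298 ± 56.7). In BrM, Cldn7 (2488 ± 196) came next, above Cldn12 (1161 ± 210) and Tjp1 (1109 ± 198), whose ranges overlapped. Cldn1 (492 ± 200) overlapped with Ocln (398 ± 44) there. Cldn6, Cldn2 and Cldn8 were at the bottom in BrM in that order, and in parental libraries the ranges of Cldn2 and Cldn6 overlapped. By mean per kb among 13700 genes, Cldn3 ranked 301 in parental libraries and 134 in BrM, Cldn7 1647 and 677, Cldn12 3744 and 1710, and Cldn1 1428 and 3988.

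The summed level of 23 claudins per kb was 13273 ± 188 in parental libraries and 22566 ± 2965 in BrM. BrM replicate 1 had 25944, and BrM replicates 2 and 3 had 21364 and 20391, all above the parental libraries. Cldn1, Cldn3, Cldn4, Cldn7 and Cldn12 made up 98.3% to 98.7% of that sum in each library. Cldn3 held 35.7%, 36.4% and 39.7% in parental libraries and 40.2%, 51.5% and 50.5% in BrM. Its share was thus higher in every BrM library, though only just so in replicate 1. Cldn4 held 40.3%, 41.2% and 29.0% in parental libraries and 42.8%, 26.7% and 28.4% in BrM, where the groups overlapped. The sign of its difference depends on the lengths used: -4.18 percentage points here, but 1.10 with coding length and 0.78 with no length. Without BrM replicate 1 it was -9.26. Cldn1 held 8.71%, 8.33% and 15.1% in parental libraries and 2.78%, 1.81% and 1.80% in BrM, the clearest separation of the 5. Cldn7 went from 9.59% ± 0.74 to 11.2% ± 1.89 and Cldn12 from 4.24% ± 0.41 to 5.28% ± 1.5, with overlapping groups. Shares were not tested, since they are not independent of each other.

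**Figure D3:**
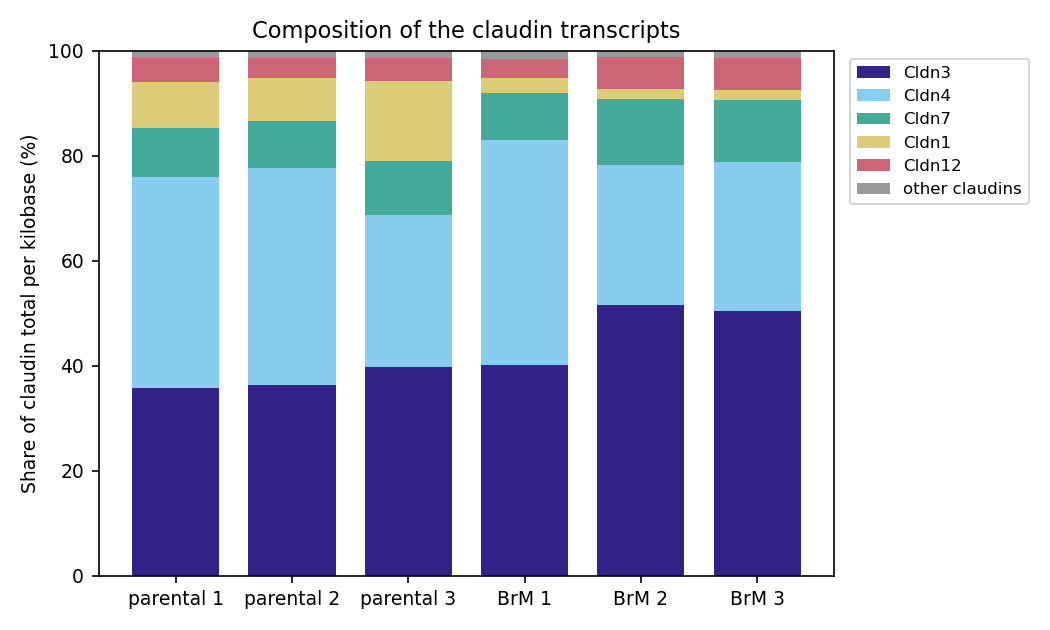
Share of each claudin in the summed claudin level per kb of exon (percent, linear axis from 0) in each of the 6 libraries, stacked, with all claudins beyond the 5 named ones in grey. The share of Cldn1 lay between 8.33% and 15.1% in parental libraries and between 1.80% and 2.78% in BrM, and BrM replicate 1 had more Cldn4 than the other BrM libraries.

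The other claudins were mostly low. Of 20, 6 were tested, 1 rose and 5 were not called, so 16.7% were called, beside 28.1% of all genes tested. The 6 include a row listed as Cldn25 (3404 ± 449 and 4484 ± 657, adjusted p = 0.116), the most abundant of them, whose symbol also stands for Cldnd1 and which may not be a claudin. Cldn9, the close neighbour of Cldn6 and a claudin of the inner ear, was at 3.05, 0.824 and 1.89 in parental libraries and at 22, 54.5 and 42.8 in BrM (log2 difference 3.78, SE 0.53, adjusted p = 0.00361). It reached the minimum for testing through the BrM libraries alone, so that it differed is in part set by the filter. Cldn10 was at 148.6, 71.7 and 2.83 in parental libraries and at 2.44, 0 and 0 in BrM, with an adjusted p of 0.0543 and no overlap only by a narrow margin; parental replicate 3 was near the BrM level. Cldn5, the main claudin of blood vessel endothelium, had no read in any library. Cldn10 was named after its values were seen.

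Of 11 other membrane proteins of the junction, 1 fell and 10 were not called (9.09%, beside 28.1% of all genes). The groups did not overlap in 5 of the 11, near the share of 48.0% over all genes tested. Clmp, an adhesion molecule related to the junctional adhesion molecules, was at 680.8, 257.8 and 58.5 in parental libraries and at 2.44, 0.956 and 0 in BrM, with 1044 reads over the parental libraries and 3 over BrM. The ratio of pooled reads was 314 (exact 95% interval 107 to 1525, counting error only), and limma's adjusted p was 0.00342. It reached the minimum for testing through the parental libraries alone, so that it differed is in part set by the filter. Marveld2 (tricellulin), which sits where the corners of cells meet and lies beside Ocln, was at 1023 ± 333 and 1257 ± 238 (adjusted p = 0.412).

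Of 19 proteins of the cytoplasmic plaque, 3 rose, 2 fell and 14 were not called. The share called, 26.3%, was near the 28.1% of all genes tested. Patj, listed as Inadl, a multi-PDZ scaffold, rose from 1168 ± 131 to 2417 ± 87.0 (log2 difference 1.05, SE 0.14, adjusted p = 0.00263). Cingulin (Cgn), which links ZO proteins to myosin and microtubules, rose from 1966 ± 218 to 4296 ± 1133 (adjusted p = 0.0144), but its call was lost without any 1 of parental replicates 1 and 2 and BrM replicates 2 and 3, with adjusted p up to 0.0619. Angiomotin (Amot) fell 3.38-fold, from 1297 ± 290.2 to 382 ± 75.1 (adjusted p = 0.00322). ZO-3 (Tjp3) fell 4.53-fold, from 3133 ± 772 to 864 ± 767 (adjusted p = 0.0319); without BrM replicate 1, where it was 4.15-fold above the mean of the other BrM libraries, the fold was 7.28 (adjusted p = 0.000228), and its call was lost without any other single library, with adjusted p up to 0.112.

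Of 15 polarity proteins tested, which set the apical side of the cell where the junction forms, 5 rose, 2 fell and 8 were not called, a share of 46.7% beside 28.1% of all genes. Their median log2 difference was 0.05, against -0.05 over all genes tested. Pard6b, a subunit of the PAR complex, rose 3.89-fold, from 728 ± 127 to 2810 ± 127 (adjusted p = 0.000602). Pals1 (Mpp5) rose 2.04-fold (1235 ± 33.1 to 2548 ± 453, adjusted p = 0.00497) and Crb3 2.28-fold (371 ± 63.2 to 842 ± 40.5, adjusted p = 0.00525); both belong to the Crumbs complex, as does Patj. Lin7c, a binding partner of Pals1, fell 1.58-fold (8455 ± 343 to 5350 ± 17.5, adjusted p = 0.00539). Pard3b, the other that fell, went from 285 ± 202 to 8.47 ± 4.45 (adjusted p = 0.011). It reached the minimum for testing through the parental libraries alone and was named after its values were seen. With chromosomes centred, Mpp5 and Lin7c were no longer called. Their log2 differences were then 0.09 (adjusted p = 0.723) and -0.14 (adjusted p = 0.415), in place of 1.03 and -0.66.

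Of 9 claudin partners and proteases, 2 rose, 1 fell and 6 were not called (33.3%, beside 28.1% of all genes). Wnk4, a kinase that phosphorylates claudins, rose 3.31-fold (39.5 ± 11.4 to 130 ± 17.8, adjusted p = 0.00965). Spint1, an inhibitor of the matriptase protease of epithelial membranes, rose 2.40-fold (2729 ± 670 to 6525 ± 1523, adjusted p = 0.0102). The tetraspanin Cd9 fell 2.07-fold (36075 ± 7240 to 17153 ± 792, adjusted p = 0.00737).

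Of 14 transcription factors known to act on junction genes, 2 rose, 3 fell and 9 were not called (35.7%, beside 28.1% of all genes). The 3 that fell are known as repressors of epithelial genes. Zeb2 fell 10.3-fold (2543 ± 402 to 244 ± 11.8, adjusted p = 0.000121), Zeb1 28.3-fold (1176 ± 231 to 41.7 ± 13.7, adjusted p = 0.000256) and Snai2 9.42-fold (152 ± 57.7 to 14.7 ± 2.83, adjusted p = 0.00183). Elf3, an epithelial activator that acts on claudin genes among others, rose 4.13-fold (355 ± 26.2 to 1525 ± 552, adjusted p = 0.00268). Ovol1, a zinc finger factor of epithelial cells, rose 3.09-fold (112 ± 26.0 to 343 ± 37.4, adjusted p = 0.00611). No other repressor of the list was called lower. Tcf3 was lower in every BrM library than in every parental one, at 5846 ± 637 and 4443 ± 477, but was not called (adjusted p = 0.0814). Twist1 was at 515 ± 138 and 735 ± 17.3 (adjusted p = 0.138) and Snai1 at 329 ± 57.8 and 419 ± 251 (adjusted p = 0.738). Grhl2, a grainyhead factor that activates Cldn4, was at 2842 ± 434 and 3847 ± 767 (adjusted p = 0.157). Ovol1, Tcf3, Twist1, Snai1 and Grhl2 were named after their values were seen.

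The adherens junction and desmosome genes, which hold cells together below the tight junction, gave 2 that rose, 3 that fell and 11 not called of 16 (31.2%, beside 28.1% of all genes). Plakophilin 3 (Pkp3) rose 1.70-fold (2568 ± 191 to 4366 ± 411.5, adjusted p = 0.00723). E-cadherin (Cdh1) fell 1.55-fold (24720 ± 1826 to 15921 ± 666, adjusted p = 0.0113), its cytoplasmic partner beta-catenin (Ctnnb1) 2.05-fold (94642 ± 15671 to 46107 ± 6239, adjusted p = 0.00989) and periplakin (Ppl) 1.61-fold (4997 ± 554 to 3098 ± 155, adjusted p = 0.0101). With 1 library left out the log2 differences stayed between -0.69 and -0.58 for Cdh1, between -1.14 and -0.91 for Ctnnb1 and between -0.73 and -0.60 for Ppl. Without BrM replicate 2, where 2190 genes were called in place of 3881, the adjusted p was 0.0633, 0.0534 and 0.0524 in that order. The call of Cdh1 was also lost without parental replicate 2 or BrM replicate 3.

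**Figure D4:**
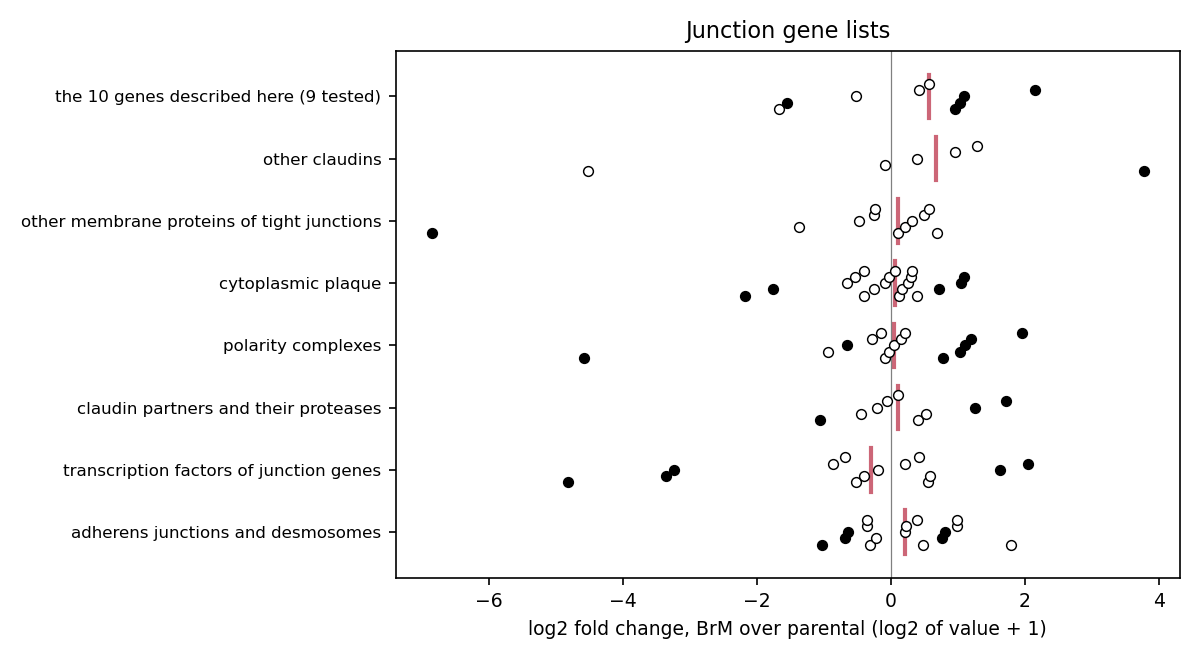
Difference between BrM and parental libraries (log2 scale) of each tested gene in the members and in 7 lists of related genes; filled points were called by limma (adjusted p under 0.05), open points were not, and red lines are list medians. Of the 15 polarity proteins 5 were called to the right of 0 and 2 to the left. Of the 9 members 4 were called to the right and 1 to the left. Among the other membrane proteins only Clmp was called, far to the left.

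Levels of some cell type markers also differed between the groups, and their part in these results was not tested. Of the markers tested, 85.7% of the epithelial, 50% of the fibroblast and pericyte and 33.3% of the immune ones were called. The share was 100% of the glial and neuronal ones and 0% of the endothelial ones, beside 28.1% of all genes tested. These shares rest on 1 to 7 tested markers per list. All 7 epithelial markers were tested: 5 rose, Cdh1 fell and Epcam was not called. Their summed value was 91658 to 101605 in parental libraries and 149384 to 163857 in BrM. That order is the one seen for Cldn3, Cldn7 and Cldn12, and it rests mostly on keratin 8 (28250 ± 7300 to 69809 ± 6322) and keratin 18 (19135 ± 993 to 43588 ± 4630). The splicing factor Esrp2 rose as well (774 ± 99.6 to 1598 ± 198, adjusted p = 0.00632). The summed fibroblast and pericyte markers were lower in BrM, at 1555 to 5746 in parental libraries and 209 to 994 in BrM. Decorin (Dcn) was at 0 in all BrM libraries, Pdgfrb at 2483 ± 1362 and 1.56 ± 1.93, and Lum at 0 in all 6. Of the 4 tested, Dcn and Pdgfrb fell, and both reached the minimum for testing through the parental libraries alone. Pdgfra (547 ± 291 and 297 ± 224, adjusted p = 0.332) and Col1a1 (357 ± 443 and 175 ± 227, adjusted p = 0.522) overlapped between groups and were not called. Pdgfra and Col1a1 were named after their values were seen. Endothelial markers stood at 23.6 to 45.8 and 24.9 to 42.7, with Cldn5 at 0. Immune markers ranged from 266 to 653 and from 454 to 3043, the highest in BrM replicate 1, where Cd68 was 12.7-fold above the mean of the other BrM libraries. Of the 3 immune markers tested, Csf1r rose: it was at 2.04, 1.65 and 18.9 in parental libraries and at 318.6, 254 and 230.03 in BrM (adjusted p = 0.0037), and reached the minimum for testing through BrM alone. Aif1 was at 48.7 ± 6.98 and 16.7 ± 22.6 (adjusted p = 0.112) and Cd68 at 337 ± 224 and 1030.2 ± 1419.8 (adjusted p = 0.637), and both were named after their values were seen. Glial and neuronal markers ranged from 994 to 1298 and from 2158 to 2250, most of it Mbp (1154 ± 177 and 2085 ± 27.3), and Gfap rose from 23.4 ± 5.08 to 106 ± 29.9 (adjusted p = 0.00637). Of these 7 markers only Mbp and Gfap were tested, and both rose. The other 5 were below the minimum for testing. Cldn11 went the other way, with 43 reads over the parental libraries and 1 over BrM. Snap25 had 11 and 4, Rbfox3 2 and 2, and Aqp4 and Mog 1 and 0 each. These 5 were named after their values were seen.

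The genes beside the members, 3 on each side, were called in part. Over all genes tested, 28.1% were called, 12.2% as higher and 15.8% as lower. The neighbourhoods were not tested as sets. All 3 tested neighbours of Cldn1 fell with it: Trp63, the basal epithelial factor p63, from a mean of 1573 to 10.1 (log2 difference -7.81, adjusted p = 0.00151), Leprel1 from 569 to 78.7 (-2.93, 0.00178) and Il1rap from 3158 to 1599 (-0.98, 0.0284). The fold of Trp63, 224, was 447 without BrM replicate 1 and 148 without BrM replicate 2. The call of Il1rap was lost in 4 of the 6 fits without 1 library and with chromosomes centred. Beside Cldn3, Abhd11 (log2 difference 0.70, adjusted p = 0.00902) and Wbscr25 (1.48, 0.0165) rose, the latter not called without any 1 of parental replicates 1 and 2 and BrM replicates 2 and 3.

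Around Cldn6, Cldn9 rose and Paqr4 fell (log2 difference -1.49, adjusted p = 0.00256), with 4 of the 6 not called. Around Cldn7, the glucose transporter gene Slc2a4 (3.42, 0.00224) and Ybx2 (3.52, 0.0143) rose, on means of 28.7 and 289 and of 20.5 and 345, and 4 of 6 were not called. Ybx2 was 11.4-fold higher, 6.39-fold without BrM replicate 1, and was not called without parental replicate 2 or 3. Around Cldn12 the changes went both ways: the Wnt receptor gene Fzd1 fell from 4891 to 476 (-3.37, 0.000249) and A330021E22Rik fell (-1.12, 0.013), while Gtpbp10 rose (0.72, 0.0269). The call of Gtpbp10 was lost in 4 of the 6 fits without 1 library, and that of A330021E22Rik without BrM replicate 2.

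Beside Cldn2, Rnf128 (log2 difference 1.39, adjusted p = 0.0118) and Morc4 (2.32, 0.000839) rose and Tbc1d8b fell (-0.78, 0.0254). Beside Ocln, Naip6 fell (-2.18, 0.0253), and beside Tjp1, Fam189a1 (2.76, 0.0304) and 1810008I18Rik (1.80, 0.018) rose. Of these, Rnf128 and Morc4 kept their calls in all 6 fits without 1 library. Tbc1d8b lost its call in 5 of them, Naip6 in 4 and 1810008I18Rik in 3. Fam189a1 was tested in only 3 of them and lost its call in 1 of these. With means of 2.36 and 18.1 it reached the minimum for testing through the BrM libraries alone, so that it differed is in part set by the filter. The fold of Fam189a1, 6.76, was 4.09 without parental replicate 1.

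**Figure D5:**
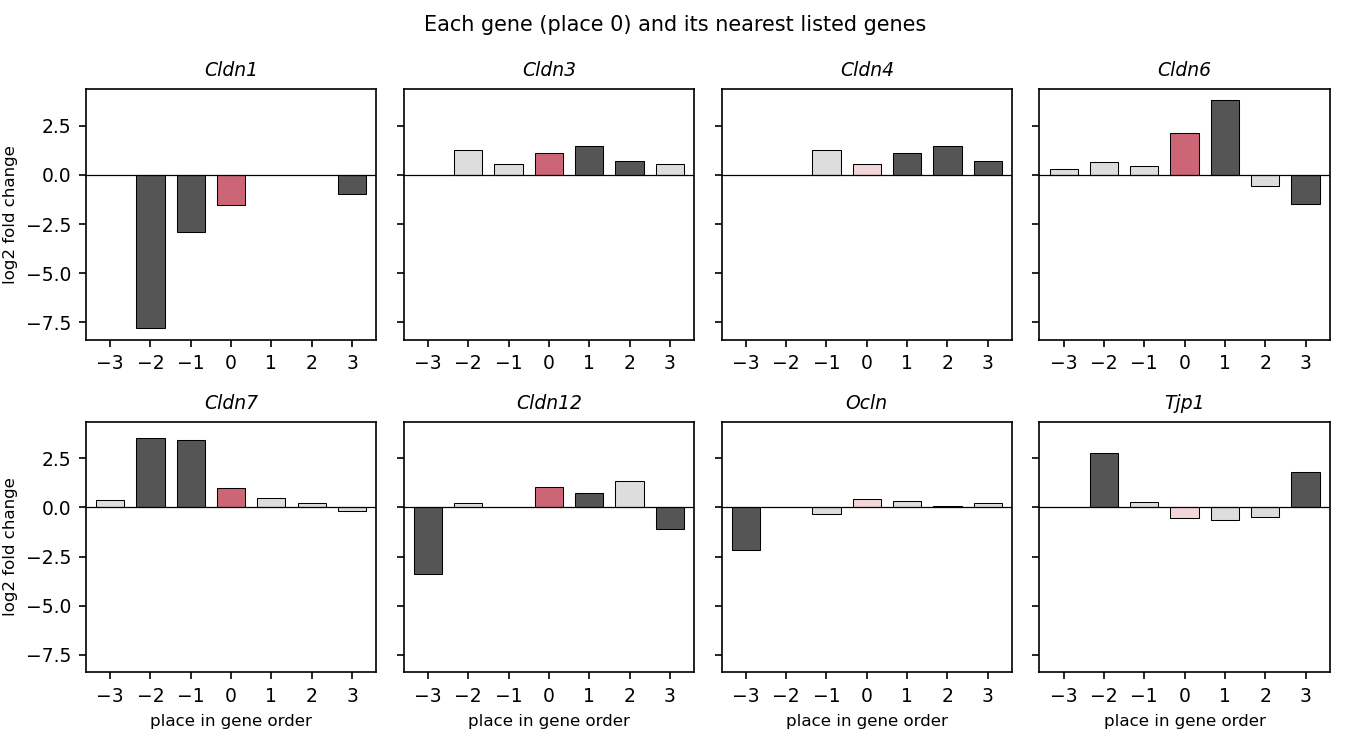
Difference between BrM and parental libraries (log2 scale) of 8 members, in red at place 0, and of the 3 listed genes on either side, in grey, by order along the chromosome (Cldn2 and Cldn8 are not drawn). Dark bars were called by limma and light bars were not, and a place without a bar is a gene below the minimum for testing; all tested places beside Cldn1 were below 0.

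The genes whose pattern over the 6 libraries was most like that of the 3 members of highest mean were sought among the 11366 genes whose mean reached 100. The 6 libraries share 2 groups, so a gene that differs between the groups scores high, and the values are a description. For Cldn4 they were Acot1 (Pearson r = 0.998), Zfp385a (0.996) and Kdm5b (0.995), with 201 genes above 0.95. For Tjp1 they were 4930579G18Rik (0.993), Rnf24 (0.992) and Gcnt2 (0.991), with 160 genes above 0.95. For Cldn3 they were Pja1 (0.999), 3300005D01Rik (0.998) and Rab25 (0.998), and 587 genes lay above 0.95. Rab25, a GTPase of apical recycling in epithelia that was also on the epithelial marker list, rose 3.81-fold (1133 ± 76.1 to 4315 ± 163, adjusted p = 0.000217).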

How the data were processed

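RNA of cultured cells was made into cDNA libraries with TruSeq or NEBNext kits, per the labels' protocols. The series' design text speaks of mouse brains instead, and the 6 libraries were read as cultured cells because their labels name cell lines. The authors deposited a signal value per gene and library, a scaled read count; STAR, HTSeq and the builds GRCm38 and GRCh38 are named per the submitters' processing notes, without versions, and the tool that gave the scaling is not given in the sources used here. The value of 1 read was found for each library, and 100% of the deposited values were whole numbers of reads (tolerance 0.01); these recovered reads served the count tools. Replicate numbers 1 and 2 come from sample titles; the third library of each group has an unnumbered title, and its number is only that of its column. BrM replicates 2 and 3 were alike but differed by more than counting noise (mean chi-square per gene 11.0, against 122 to 304 for other pairs within a group) and were kept as separate libraries. The median chi-square over genes was much lower, 1.53 for this pair, against 10.3 to 44.7 for the other pairs.

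Genes with a mean of at least 10 were tested with limma 3.58.1 (R 4.3.3) on log2(value + 1), two-sided, using limma's intensity trend; p-values were adjusted by Benjamini-Hochberg over all genes tested. The 10 genes, the 13 lists and the tests were chosen with earlier results of these data known. Named were the 10 genes, up to 4 called genes of smallest p per list (or the 2 of highest mean where none was called), the 3 genes most like each of the 3 members of highest mean, and neighbours of a member where at least 1 was called; genes outside this rule are marked in the text. Alternatives were other pseudocounts, filters, scalings and moderation, array weights, edgeR 4.0.16 (3753 genes called, 3675 shared with limma) and DESeq2 1.42.0 (5075, 3846 shared) on recovered reads, replicate blocks, centring of chromosomes, averaging BrM replicates 2 and 3 and leaving out each library. Claudin shares without BrM replicate 1 were added after seeing the data. Positions and exon lengths came from GENCODE M21 by symbol (98.2% of listed genes). A row listed as Cldn25, whose symbol is a synonym of 2 RefSeq genes, was left out of claudin sums. The fits were tested on simulated data. One result that needs an item withheld for evaluation is not reported here.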

Additional observations from a re-analysis of the deposited data

How the results depend on the processing

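No log2 difference of a tested member changed sign under any alternative that gave a value (206 values), and the calls of Cldn3 and Cldn7 held in all 23 alternatives. The count of genes called was 3881, 8485 with array weights, 2263 with BrM replicates 2 and 3 averaged and 2190 to 6465 with 1 library left out. The count of members called was 5, beside 28.1% of all genes tested, and 6 of 10 with no minimum for testing, beside 21.1%. It was 8 with array weights, beside 61.4%, and 3 with the averaged libraries, beside 16.3%. With 1 library left out it was 3 to 7, beside 15.8% to 47.3% of all genes tested. The numbers 1 and 2 shared by the groups did not mark a pairing in the labels, and the deviations of same-numbered libraries correlated at 0.30 and -0.09. With a replicate block on the numbered libraries only, 2029 genes and 3 members were called, Cldn12 (adjusted p = 0.0671) and Cldn6 (0.188) being lost, as were the calls of Cgn, Crb3, Lin7c, Cd9, Wnk4, Pkp3, Ppl, Cdh1, Esrp2 and Mbp among the genes of other lists; with the unnumbered libraries as a further level of the block, 4040 genes and 5 members were called. Upper quartile scaling, quantile normalization and centred chromosomes moved the median of all genes by 0.11, 0.14 and 0.15 on the log2 scale, and the share of calls that were higher in BrM from 43.6% to 53.4%, 56.0% and 53.1%. The difference in share of the claudin sum was -8.60 percentage points for Cldn1 (-19.6 with coding length, -19.2 with no length), -4.18 for Cldn4 (1.10 and 0.78), 1.59 for Cldn7 (3.50 with coding length) and 1.03 for Cldn12 (3.63 and 3.96). Among 48 other named genes, 79 of 1096 values lost a call, none gained one, and 3 changed sign, all of Esam, an endothelial adhesion molecule that was not called: -0.37 with the block on numbered libraries, -0.10 without parental replicate 3 and -0.15 without BrM replicate 3, beside 0.11; with 1 library left out it ranged from -0.15 to 0.38. Depth limited Cldn8, Cldn2 and Cldn6, which had 12, 243 and 312 reads over the 6 libraries.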
